A study of Mus musculus with 8 samples.

Results

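The liver X receptors and the sterol efflux genes they are known to act on were followed as 7 genes of the 55421 in the count table. They were chosen by name: *Nr1h2* and *Nr1h3*, which encode the receptors LXRβ and LXRα, *Abca1*, *Abcg1* and *Apoe*, which serve sterol efflux, and *Mylip* and *Lpcat3*, which are lipid targets of the receptors rather than efflux genes. RNA was sequenced from primary cultures of mouse spermatogonia, called SSC cultures, in 4 groups of 2 libraries each. The cells came from 6-day-old pups of the strain C57BL/6XDBA/2, and the labels name no transgene or deletion in any group. They grew on irradiated mouse embryonic fibroblasts, whose RNA can enter a library, in medium with N2, bFGF and GDNF. Veh cells stayed in complete medium. RA cells received 100 nM retinoic acid in that medium. NR cells, named EBSS in the titles, were kept for nutrient restriction in 90% Earle's balanced salt solution and 10% complete medium, and NRRA cells received 100 nM retinoic acid in the NR medium. Treatment lasted 2 days. The groups therefore ask what retinoic acid does in each medium, what nutrient restriction does with and without retinoic acid, and whether the 2 effects add up.

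Liver X receptors are nuclear receptors that bind oxysterols and desmosterol, which build up when a cell holds much sterol. They sit on DNA as heterodimers with retinoid X receptors (RXRs), at direct repeats of a hexamer half-site with 4 bases between, and retinoid X receptors also pair with the retinoic acid receptors. Activated liver X receptors are known to raise export of cholesterol through *Abca1* and *Abcg1*, to raise the acceptor protein *Apoe*, to lower uptake through *Mylip* and to change membrane phospholipids through *Lpcat3*. Mice that lack liver X receptors are known to develop defects of testicular lipid handling and fertility.

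Library totals ran from 19261333 to 30023585 counts, and 1 CPM (1 count in 1000000 after TMM scaling) stood for 19.2 to 31.1 reads. All 7 genes passed edgeR's filter on low counts and are among the 20477 genes tested. Each difference was tested with edgeR's quasi-likelihood test on all 8 libraries, and a gene passed where its p, adjusted over all tested genes, was under 0.05. The retinoic acid target *Stra8* was taken as a check of the retinoic acid labels, and it stood at 1.33 ± 0.263 CPM in the Veh libraries, 642 ± 15.1 with RA, 14.4 ± 0.167 with NR and 937 ± 28.5 with NRRA (SD, n = 2). For nutrient restriction, 5 genes of the amino acid response were mixed: 3 were higher and 1 lower in NR and 1 was higher in NRRA against Veh (3 and 0, and 3 and 0, under library totals without TMM scaling). In NR, *Trib3* (0.55, adjusted p = 0.000502), *Ddit3* (0.36, adjusted p = 0.000352) and *Chac1* (0.43, adjusted p = 0.0386) were higher, *Asns* was lower (-0.14, adjusted p = 0.0409, lost under DESeq2 at adjusted p = 0.102), and *Sesn2* did not pass (0.04, adjusted p = 0.616). Germ cell markers were present in every library, with 8 of 8 detected and a summed level between 959 and 1238 CPM. The 10 fibroblast markers summed to 19042 to 19267 CPM in the Veh libraries, 15471 to 16664 with RA, 31217 to 32569.6 with NR and 25019 to 25792 with NRRA, which is 0.839, 1.67 and 1.33 times the Veh mean. The 10 macrophage markers, all detected, summed to 289.6 to 291 CPM in the Veh libraries, 235 to 257 with RA, 329 to 334 with NR and 309 to 322 with NRRA. Markers of testis somatic cells were low but not absent. The 6 Sertoli cell markers summed to 35.9 to 38.7 CPM in the Veh libraries and 24.6 to 25.1 with RA. Their sum was 42.4 to 45.4 with NR and 12.2 to 13.4 with NRRA. It came mostly from *Sox9*, at 31.9, 14.7, 36.1 and 7.14 CPM in the group means. *Wt1* had another order, at 4.56, 8.96, 6.75 and 4.50 CPM. Against Veh, *Wt1* was higher in RA (0.97, adjusted p = 2.58e-06) and did not pass in NRRA (-0.03, adjusted p = 0.896). Of the 4 Sertoli cell markers tested, 1 was higher and 1 lower in RA, and the same in NRRA. *Fshr* was at most 0.0482 CPM in any library. The 5 Leydig cell markers summed to 6.79 to 8.29 CPM in the Veh libraries, 12.6 to 14.2 with RA, 5.35 to 6.17 with NR and 6.47 to 6.71 with NRRA, nearly all from *Star*, and *Lhcgr* was at most 0.104 CPM. In these bulk libraries, more cells of a type and more RNA per cell cannot be told apart. The labels call the libraries of a group replicates and name no animal or culture for them. The study describes the 2 libraries of a sequencing experiment as independent biological replicates.

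The 2 genes with the largest increase in NRRA over Veh were *Abca1* and *Mylip*, and the 250 bases before the start of each are shown because a binding motif of the receptors was searched there. The sequences are from RefSeq on GRCm38.p6, read 5′ to 3′ on the strand of the gene, chr4:53159896-53160145 (minus strand) for *Abca1* and chr13:45389492-45389741 (plus strand) for *Mylip*. Capitals mark the match in *Abca1*.
Abca1: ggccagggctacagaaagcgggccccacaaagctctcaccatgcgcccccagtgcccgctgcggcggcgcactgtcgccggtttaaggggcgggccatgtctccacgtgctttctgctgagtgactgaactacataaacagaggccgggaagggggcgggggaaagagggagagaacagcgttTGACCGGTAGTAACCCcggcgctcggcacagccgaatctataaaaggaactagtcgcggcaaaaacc
Mylip: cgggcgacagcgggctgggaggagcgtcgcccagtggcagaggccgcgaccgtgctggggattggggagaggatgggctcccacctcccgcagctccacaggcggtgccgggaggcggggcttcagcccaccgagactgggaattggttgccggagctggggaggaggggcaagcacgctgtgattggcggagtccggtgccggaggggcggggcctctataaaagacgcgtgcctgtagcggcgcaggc
The motif was searched on both strands in windows of 250 bases before to 50 bases after a start. The strict form, AGGTCA in 2 copies with 4 bases between, was found in 5 of 32851 windows (0.0152%), and none of them belonged to the 6 genes with a window here. The relaxed form, NGGTNA in 2 copies with 4 bases between, which contains the strict one, was found in 236 windows (0.718%). Among the 6 genes only *Abca1* held it, as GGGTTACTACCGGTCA on the opposite strand, from 67 to 52 bases before the start. No window of *Abcg1* was used here. A match of letters does not show binding, and the window of *Mylip* held no match.

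**Figure D1:**
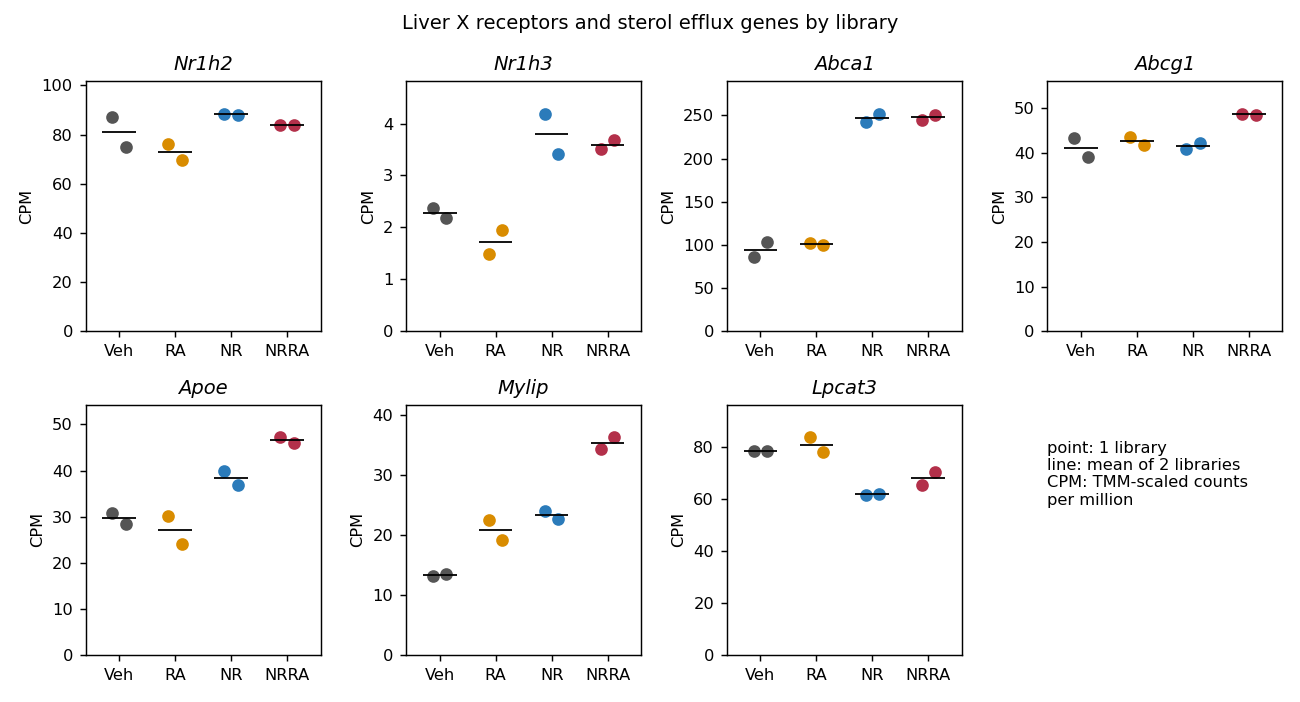
CPM (linear axis from 0) of the 7 genes in the 4 groups, with a point per library and a line at the mean of 2 libraries. The *Abca1* points lie between 242 and 252 CPM in NR and NRRA and between 86.2 and 103 CPM in Veh and RA, and the *Mylip* points climb from Veh over RA and NR to NRRA.

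*Nr1h2*, the widely expressed receptor LXRβ, was the more abundant receptor and moved little. It lies on chr7:44549616-44553951 (GRCm38, minus strand, ENSMUSG00000060601). Its level was 87.2 and 74.9 CPM in the Veh libraries, 76.0 and 69.6 with RA, 88.5 and 88.1 with NR and 83.8 in each NRRA library. The RA and Veh libraries overlapped, and the NR libraries were the highest. Per 1000 CPM of the fibroblast markers, *Nr1h2* stood at 3.89 to 4.58 CPM in Veh, 4.50 to 4.56 with RA, 2.70 to 2.84 with NR and 3.25 to 3.35 with NRRA. The part of those cells in its levels was not tested. *Nr1h2* was lower in RA than in Veh by a log2 difference of -0.16 ± 0.0622 (SE, adjusted p = 0.0385), but in NRRA it was above RA (0.21 ± 0.0601, adjusted p = 0.00659). Neither NR nor NRRA passed against Veh, with 95% intervals of -0.00 to 0.25 and -0.08 to 0.17. Under library totals without TMM scaling, *Nr1h2* passed as higher than Veh in NR and in NRRA. The RA call was lost under DESeq2 (adjusted p = 0.0875), under library totals without TMM scaling (-0.06, adjusted p = 0.475), under upper quartile scaling (adjusted p = 0.109), with the trend of GC content and exon length removed (-0.03, adjusted p = 0.626), in a fit of Veh and RA alone, and without any 1 of 6 libraries (Veh 1, RA 2, NR 1, NR 2, NRRA 1 or NRRA 2, adjusted p 0.0585 to 0.779). Without Veh replicate 1, NR (0.26, adjusted p = 0.000392) and NRRA (0.17, adjusted p = 0.0126) passed against Veh, and without RA replicate 2 the call against RA was lost (0.14, adjusted p = 0.170).

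*Nr1h3*, the receptor LXRα that is known from liver, fat and macrophages and is itself a liver X receptor target, was scarce and was higher under nutrient restriction. It lies on chr2:91184061-91202834 (minus strand, ENSMUSG00000002108), and 29 to 115 reads per library were counted on it. The Veh libraries held 2.38 and 2.19 CPM, RA 1.48 and 1.94, NR 4.19 and 3.42, and NRRA 3.50 and 3.69. All 4 libraries with nutrient restriction were above all 4 without it, and the RA libraries were the lowest. *Nr1h3* rose by 0.72 ± 0.201 under NR (1.65-fold, adjusted p = 0.00464) and by 0.65 ± 0.196 under NRRA (1.57-fold, adjusted p = 0.00555) against Veh, and by 1.04 ± 0.197 in NRRA against RA (2.06-fold, adjusted p = 0.000105). RA against Veh did not pass (-0.39 ± 0.232, adjusted p = 0.190), and retinoic acid within NR medium left an interval of -0.42 to 0.28. The NR call was lost without NR replicate 1 (0.60, adjusted p = 0.0528), and the NRRA call under DESeq2 (0.63, adjusted p = 0.0520). Per 1000 CPM of the fibroblast marker sum, *Nr1h3* stood at 0.114 to 0.125 CPM in Veh, 0.0887 to 0.126 with RA, 0.105 to 0.134 in NR and 0.136 to 0.148 in NRRA. On that scale the NR range covered the Veh range, and the NRRA range was above it. Macrophage markers were mixed: of 10, 5 were higher and 0 lower in NR, and 5 higher and 3 lower in NRRA against Veh. Of these, *Ptprc* rose by 1.36 under NR and 0.98 under NRRA, *Fcgr1* by 1.07 and 0.90, and *C1qb* by 1.02 and 1.17 on the log2 scale, each more than *Nr1h3*. *C1qa* (0.45 in NR) and *Adgre1* (0.41) rose less in NR, and *Lyz2*, which makes up the most of the macrophage sum at 146 CPM in Veh, did not pass (0.10, adjusted p = 0.125). The markers lower in NRRA were *Cd68* (-0.26), *Cd14* (-0.25) and *Mrc1* (-0.87), which did not pass in NR. The part of other cells in the rise of *Nr1h3* was not tested.

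Of the 3 retinoid X receptors, *Rxra* and *Rxrg* fell with retinoic acid. *Rxra*, the most abundant, stood at 158 ± 1.96 CPM in the Veh libraries, 92.9 ± 1.54 with RA, 153 ± 2.50 with NR and 103 ± 0.514 with NRRA (SD, n = 2). It fell by 0.77 on the log2 scale under RA (adjusted p = 4.87e-13) and by 0.63 under NRRA (adjusted p = 5.90e-12), and did not pass under NR (-0.05, adjusted p = 0.356). *Rxrg* was low, at 5.45 ± 0.487 CPM in Veh, and fell by 1.36 in RA, 0.92 in NR and 3.08 under NRRA (adjusted p = 9.54e-06, 0.000541 and 1.02e-10). *Rxrb* stayed between group means of 47.0 and 52.1 CPM and passed only in NRRA against Veh (0.15, adjusted p = 0.0463), a call lost under DESeq2 (adjusted p = 0.200) and RLE scaling (adjusted p = 0.0924). The partner and the receptor thus had different orders of groups: *Rxra* was lowest in RA and NRRA, and *Nr1h3* was lowest in Veh and RA.

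*Abca1*, the transporter that loads cholesterol and phospholipid onto lipid-poor apolipoproteins, had the largest response to nutrient restriction of the 7 genes. It lies on chr4:53030787-53159895 (minus strand, ENSMUSG00000015243). The Veh libraries held 86.2 and 103 CPM, RA 102 and 100, NR 242 and 252, and NRRA 245 and 251. The libraries fell into a low and a high set divided by medium, and within each medium those with and without retinoic acid overlapped. Against Veh, *Abca1* rose by 1.39 ± 0.0567 under NR (2.62-fold, adjusted p = 5.91e-17) and by 1.40 ± 0.0563 under NRRA (2.63-fold, adjusted p = 2.56e-17). It rose by 1.30 ± 0.0552 in NRRA against RA (adjusted p = 1.14e-16). Retinoic acid did not pass in complete medium (0.10 ± 0.0590, adjusted p = 0.183, interval -0.02 to 0.22) or in NR medium (0.01 ± 0.0522, adjusted p = 0.927, interval -0.10 to 0.11). The fibroblast marker sum rose less than *Abca1*, but it is led by *Fn1*, at 9126 CPM in Veh, which changed by 0.14 in NR and -0.55 in NRRA. Of the 10 markers, 9 were higher in NR, with a median of 0.87, and 7 higher and 3 lower in NRRA, with a median of 0.45. *Postn* (1.68) and *Col3a1* (1.54) had larger values than *Abca1* in NR, and in NRRA *Postn* was again above it and *Col3a1* (1.41) level with it. Per 1000 CPM of their sum, *Abca1* stood at 4.53 to 5.33 CPM in the Veh libraries, 6.14 to 6.46 with RA, 7.73 to 7.76 with NR and 9.51 to 10.0 with NRRA. The part of those cells in the rise was not tested. The effect of retinoic acid in complete medium passed without Veh replicate 2 (0.25, adjusted p = 0.000121), as did the interaction (-0.25, adjusted p = 0.00190), and it passed under library totals without TMM scaling (0.20, adjusted p = 0.00835).

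*Abcg1*, which moves sterol toward formed lipoprotein particles and within the cell, did not follow *Abca1*. It lies on chr17:31057675-31117988 (plus strand, ENSMUSG00000024030). Its level was 43.3 and 39.0 CPM in the Veh libraries, 43.6 and 41.8 with RA, 40.8 and 42.3 with NR and 48.8 and 48.6 with NRRA. Only the NRRA libraries stood above all others. Per 1000 CPM of the fibroblast markers, *Abcg1* stood at 2.02 to 2.27 CPM in Veh, 2.62 to 2.70 with RA, 1.30 to 1.31 with NR and 1.89 to 1.94 with NRRA. The part of those cells in its levels was not tested. NR against Veh was 0.01 ± 0.0645 (adjusted p = 0.875), and the interval of -0.12 to 0.15 leaves out a change as large as that of *Abca1*. In NRRA, *Abcg1* rose by 0.24 ± 0.0620 against Veh (adjusted p = 0.00151), by 0.23 ± 0.0605 against NR (adjusted p = 0.00318) and by 0.19 ± 0.0602 against RA (adjusted p = 0.0118). The call against RA was lost under DESeq2 (0.17, adjusted p = 0.0937) and without RA replicate 2, NRRA replicate 1 or NRRA replicate 2 (0.16 to 0.19, adjusted p 0.0699 to 0.140), and the call against NR without NR replicate 1 (0.18, adjusted p = 0.0785).

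*Apoe*, a secreted apolipoprotein that accepts exported sterol and is a ligand of lipoprotein receptors, rose with nutrient restriction and rose further when retinoic acid was added. It lies on chr7:19696109-19699188 (minus strand, ENSMUSG00000002985). The Veh libraries held 30.8 and 28.5 CPM, RA 30.1 and 24.1, NR 39.9 and 36.8, and NRRA 47.2 and 46.0. NRRA was above NR and NR above Veh without overlap, while RA and Veh overlapped. *Apoe* rose by 0.37 ± 0.0816 under NR (1.29-fold, adjusted p = 0.000593) and by 0.65 ± 0.0780 under NRRA (1.57-fold, adjusted p = 6.32e-08) against Veh. It also rose in NRRA against NR (0.28 ± 0.0734, adjusted p = 0.00243) and against RA (0.80 ± 0.0770, adjusted p = 2.30e-09). RA against Veh was -0.15 ± 0.0854 (adjusted p = 0.168), and it passed without RA replicate 1 (-0.30, adjusted p = 0.0104). The call of NRRA against NR was lost without NR replicate 2 (0.21, adjusted p = 0.101). The fibroblast marker sum rose more than *Apoe* in NR: per 1000 CPM of their sum, *Apoe* stood at 1.48 to 1.62 CPM in the Veh libraries, 1.56 to 1.80 with RA, 1.13 to 1.28 with NR and 1.83 to 1.84 with NRRA. The part of those cells in the rise was not tested.

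*Mylip*, also called IDOL, encodes a ubiquitin ligase that sends lipoprotein receptors to the lysosome, and it rose with each treatment. It lies on chr13:45389742-45412022 (plus strand, ENSMUSG00000038175), next to the upstream bases printed above. Its level was 13.2 and 13.4 CPM in the Veh libraries, 22.5 and 19.2 with RA, 23.9 and 22.6 with NR and 34.3 and 36.2 with NRRA. No group overlapped its neighbour in this order, and NR was only slightly above RA. Against Veh, *Mylip* rose by 0.63 ± 0.0926 under RA (1.55-fold, adjusted p = 3.58e-06), by 0.80 ± 0.0912 under NR (1.74-fold, adjusted p = 5.81e-08) and by 1.40 ± 0.0843 under NRRA (2.64-fold, adjusted p = 1.16e-13). It rose by 0.60 ± 0.0743 when retinoic acid was added to NR medium (adjusted p = 1.98e-07) and by 0.77 ± 0.0754 in NRRA against RA (adjusted p = 3.40e-09). The retinoic acid effects in the 2 media differed by -0.03 ± 0.119 (interaction, adjusted p = 0.917, interval -0.27 to 0.22). Per 1000 CPM of the fibroblast markers, *Mylip* stood at 0.694 to 0.698 CPM in the Veh libraries, 1.24 to 1.35 with RA, 0.692 to 0.766 with NR and 1.33 to 1.45 with NRRA, so on that scale NR covered the Veh range and RA and NRRA did not. The part of those cells in the NR rise was not tested. In the fits tried, each of these 5 calls was kept.

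In the list of lipoprotein receptors and their regulators, more genes were lower than higher under nutrient restriction. Of its 10 genes, 0 were higher and 7 lower in NR, 2 higher and 6 lower in NRRA, and 2 higher and 3 lower in RA against Veh, with medians of -0.33, -0.19 and -0.10. Of all tested genes, 21.7% were higher and 22.2% lower in NR, 30.1% and 28.7% in NRRA, and 19.8% and 23.4% in RA, with medians of 0.006, 0.030 and -0.019. In RA, 5 of the 10 passed beside 43.2% of all genes. *Lrp8*, an apolipoprotein E receptor, stood at 20.9 ± 0.713 CPM in the Veh libraries, 18.6 ± 0.558 with RA, 8.0 ± 0.280 with NR and 8.82 ± 0.715 with NRRA (SD, n = 2). It fell by 1.38 under NR (adjusted p = 7.69e-12) and by 1.24 under NRRA (adjusted p = 9.36e-12). *Lrp1*, a large scavenging receptor, was far more abundant, at 3582 ± 120.4 CPM in Veh, and its NR difference did not pass (-0.04, adjusted p = 0.449). *Ube2d3*, a ubiquitin-conjugating enzyme, differed by -0.12 in NR (adjusted p = 0.0175, lost under library totals at -0.09, adjusted p = 0.0680) and fell by 0.23 under NRRA (adjusted p = 2.11e-05). Library totals without TMM scaling gave 0 higher and 6 lower genes in NR, 2 and 5 in NRRA and 2 and 2 in RA, with medians of -0.30, -0.07 and 0.00. The *Mylip* protein acts on receptor protein, and these counts are of RNA only.

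*Lpcat3*, which places polyunsaturated acyl chains into membrane phospholipid, fell under nutrient restriction, where *Abca1*, *Apoe* and *Mylip* rose and *Abcg1* did not pass in NR. It lies on chr6:124663027-124704418 (plus strand, ENSMUSG00000004270), and 334 of its 3268 exon bases (10.2%) overlap *Emg1* on the opposite strand, so its counts are uncertain to that extent. The Veh libraries held 78.7 and 78.6 CPM, RA 83.9 and 78.2, NR 61.6 and 62.2, and NRRA 65.6 and 70.5. All 4 libraries with nutrient restriction were below all 4 without it. Per 1000 CPM of the fibroblast markers, *Lpcat3* stood at 4.08 to 4.13 CPM in Veh, 5.04 to 5.05 with RA, 1.91 to 1.97 with NR and 2.54 to 2.82 with NRRA. The part of those cells in the fall was not tested. *Lpcat3* fell by 0.34 ± 0.0566 under NR (adjusted p = 1.61e-05) and by 0.21 ± 0.0550 under NRRA (adjusted p = 0.00209) against Veh, and by 0.25 ± 0.0540 in NRRA against RA (adjusted p = 0.000531). It was higher in NRRA than under NR, as *Abcg1*, *Apoe* and *Mylip* were (0.14 ± 0.0553, adjusted p = 0.0474), a call lost under DESeq2 (adjusted p = 0.196), RLE scaling (adjusted p = 0.0880), no filter on low counts (adjusted p = 0.0801), and without RA 1, NR 1, NR 2 or NRRA 2 (0.08 to 0.14, adjusted p 0.0521 to 0.402). The NRRA call against Veh was lost without NRRA replicate 1 (-0.16, adjusted p = 0.0679) and under library totals without TMM scaling (-0.09, adjusted p = 0.139). RA against Veh did not pass (0.04, adjusted p = 0.599), but passed at 0.14 (adjusted p = 0.0387) under library totals and at 0.12 (adjusted p = 0.0365) with the GC and length trend removed.

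Of 8 other lysophospholipid acyltransferases, more were lower than higher in each treatment with TMM scaling, and this turned in RA under library totals. The counts were 0 higher and 5 lower in NR, 1 higher and 6 lower in NRRA, and 1 higher and 3 lower in RA, with medians of -0.24, -0.28 and -0.15 (0 and 5, 1 and 4, and 2 and 1 under library totals without TMM scaling). Lower levels were found in 22.2%, 28.7% and 23.4% of all tested genes. *Mboat1* was higher in RA (0.64, adjusted p = 0.0187) and NRRA (0.74, adjusted p = 0.00349), and *Lpcat2*, *Mboat1* and *Lpgat1* did not pass in NR. *Lclat1*, which acts on lysocardiolipin and other acidic lysolipids, went from 91.6 ± 1.42 CPM in Veh to 43.4 ± 1.82 in NR and 38.9 ± 0.285 in NRRA (SD, n = 2), and fell by 1.08 (adjusted p = 9.03e-15) and 1.24 (adjusted p = 1.91e-16). *Lpcat1*, which makes saturated phosphatidylcholine, fell mostly with retinoic acid, by 0.96 under RA (adjusted p = 3.19e-11), 0.25 under NR (adjusted p = 0.00413) and 1.57 under NRRA (adjusted p = 6.10e-16). The smaller RA value of *Lclat1*, -0.15 (adjusted p = 0.0215), was lost under 3 scalings or tools, with -0.05 (adjusted p = 0.484) under library totals. *Mboat7*, which acts on lysophosphatidylinositol, fell by 0.40 under NR (adjusted p = 4.12e-07). *Lpgat1* stood at 118 ± 11.4 CPM in Veh and 115 ± 5.54 in NR, a difference that did not pass (-0.04, adjusted p = 0.577).

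**Figure D2:**
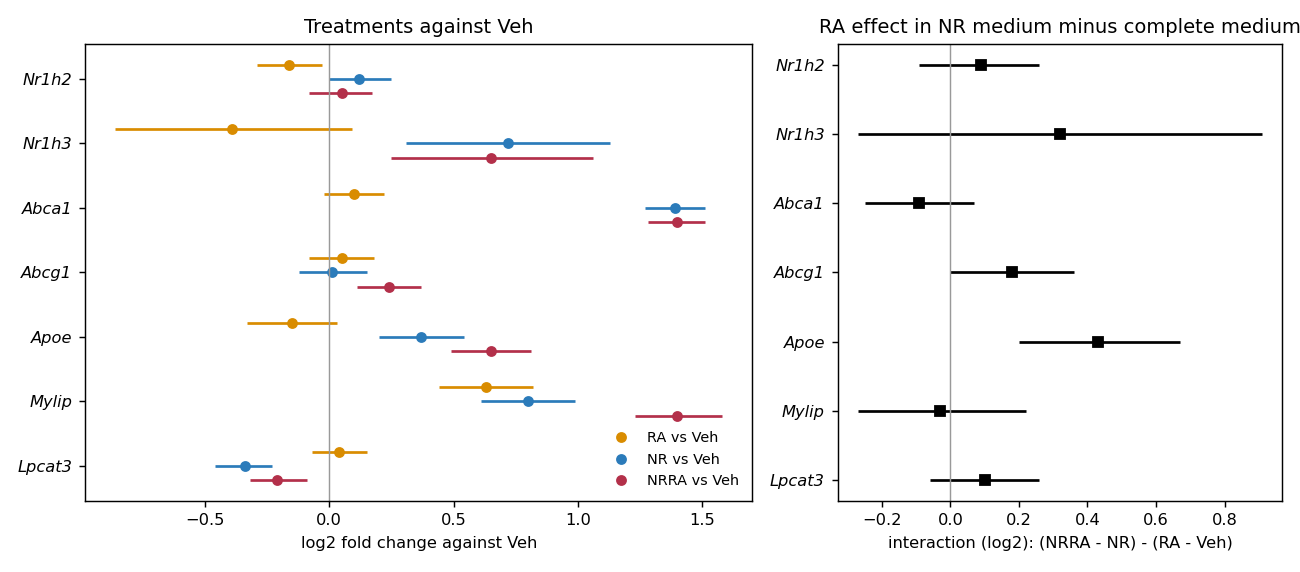
Left, log2 fold change of RA, NR and NRRA against Veh for the 7 genes, with 95% intervals of edgeR's model, and right, the interaction on the log2 scale, (NRRA - NR) - (RA - Veh). *Abca1* is at 1.39 in NR and 1.40 in NRRA, *Lpcat3* is below 0 in both, and only the *Apoe* interaction, 0.43, passed the test.

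Counted over the 7 genes, the treatments differed as follows. In RA against Veh, 1 gene was higher (*Mylip*) and 1 lower (*Nr1h2*), while 43.2% of all tested genes passed, 19.8% higher and 23.4% lower. In NR against Veh, 4 were higher (*Nr1h3*, *Abca1*, *Apoe*, *Mylip*) and 1 lower (*Lpcat3*), beside 43.9% of all tested genes, 21.7% higher and 22.2% lower. In NRRA against Veh, 5 were higher and 1 lower, beside 58.9% of all genes, 30.1% higher and 28.7% lower. In NRRA against NR, 4 were higher (*Abcg1*, *Apoe*, *Mylip*, *Lpcat3*) and 0 lower, beside 43.4% of all genes, 21.3% higher and 22.1% lower. In NRRA against RA, 6 were higher and *Lpcat3* lower, beside 40.3% of all genes, 20.9% higher and 19.4% lower. With a fold of at least 2 as well, 0 of the 7 passed in RA (7.49% of all genes), 1 in NR (8.29%), 2 in NRRA (15.9%), 0 in NRRA against NR (8.70%) and 2 in NRRA against RA (8.29%). In RA against Veh, 2 of 7 is no more than the share of all genes. The medians of the 7 log2 fold changes were 0.04 for RA, 0.37 for NR and 0.65 for NRRA, each against Veh, where the medians of all tested genes were -0.019, 0.006 and 0.030. The 3 comparisons with Veh share its 2 libraries. Without NR replicate 1 or NR replicate 2, the count in NRRA against NR was 2. Without Veh 1, RA 2, NR 1, NR 2, NRRA 1 or NRRA 2, the count in RA against Veh was 1. Under library totals without TMM scaling the median of all genes moved to 0.143 in NRRA against Veh, and the higher share of the calls went from 51.2% to 63.1% there, from 45.8% to 64.6% in RA against Veh and from 49.0% to 63.8% in NRRA against NR.

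Whether retinoic acid acted differently in the 2 media was tested as an interaction, and *Apoe* alone of the 7 genes passed. Its retinoic acid effect was -0.15 in complete medium and 0.28 in NR medium, a difference of 0.43 ± 0.113 (adjusted p = 0.00960), where 13.0% of all tested genes passed, 6.37% higher and 6.58% lower. A count of 1 of 7 is near that share of all genes. No interaction of the 7 reached a fold of 2, which 2.24% of all genes did. The call was lost without RA replicate 2 (0.27, adjusted p = 0.179) or NR replicate 2 (0.33, adjusted p = 0.122), and without Veh replicate 2 the count was 2, with *Abca1* (-0.25, adjusted p = 0.00190) as the other gene. For the rest the interactions were 0.32 in *Nr1h3* (interval -0.27 to 0.91), 0.18 in *Abcg1* (-0.00 to 0.36), 0.10 in *Lpcat3* (-0.06 to 0.26), 0.09 in *Nr1h2* (-0.09 to 0.26) and -0.09 in *Abca1* (-0.25 to 0.07). The wide interval of *Nr1h3* goes with its low counts.

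Levels were also set side by side per length, as CPM per kilobase of exon. In Veh the order of the mean levels was *Nr1h2* 24.2, *Lpcat3* 24.1, *Apoe* 13.9, *Abca1* 9.11, *Abcg1* 5.64, *Mylip* 4.12 and *Nr1h3* 0.908, and of these neighbours only *Nr1h2* and *Lpcat3* overlapped. *Nr1h2* lay at the 87.7th percentile of 20456 tested genes in Veh and *Nr1h3* at the 27.9th. In NRRA the order was *Nr1h2* 25.0, *Abca1* 24.0, *Apoe* 21.8, *Lpcat3* 20.8, *Mylip* 10.9, *Abcg1* 6.67 and *Nr1h3* 1.43, with overlap of *Apoe* and *Lpcat3*. *Abca1* thus passed *Apoe* and *Lpcat3* in this order, and *Mylip* passed *Abcg1*.

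**Figure D3:**
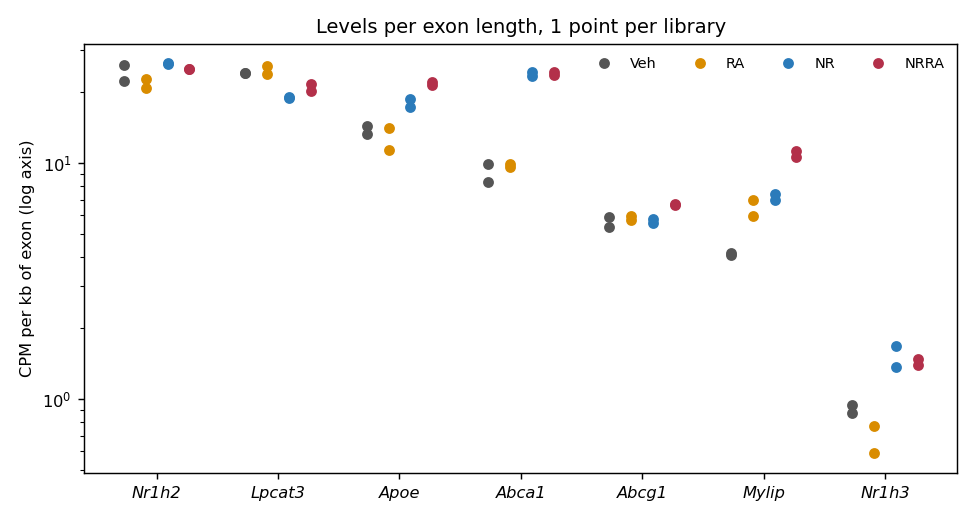
CPM per kilobase of exon (log axis) of the 7 genes, with a point per library coloured by group. *Nr1h3* is lowest in every library, at 0.588 to 1.67, and *Abca1* lies at 8.32 to 9.90 in Veh and 23.4 to 24.3 in NR.

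Other known targets of the receptors did not move in 1 direction. The list holds 21 genes, of which 15 were tested. Against Veh, 5 were higher and 5 lower in RA, 4 higher and 6 lower in NR, and 6 higher and 6 lower in NRRA, with medians of 0.02, -0.05 and 0.15, beside 43.2%, 43.9% and 58.9% of all tested genes that passed in either direction. *Lpl*, a secreted lipase of lipoprotein triglyceride, stood at 3.60 ± 0.955 CPM in the Veh libraries, 3.57 ± 0.646 with RA, 22.9 ± 2.25 with NR and 13.3 ± 1.56 with NRRA (SD, n = 2), and rose by 2.68 under NR (adjusted p = 1.94e-14) and 1.89 under NRRA (adjusted p = 4.65e-11). *Mlxipl*, which encodes the glucose-sensing transcription factor ChREBP, rose in each treatment, as *Mylip* did, by 0.56 under RA (adjusted p = 6.52e-06), 0.69 under NR (adjusted p = 1.58e-07) and 1.17 under NRRA (adjusted p = 1.26e-12). The 3 most abundant genes of the list fell in every treatment. *Fasn*, the fatty acid synthase, fell by 0.39, 0.40 and 0.54 in RA, NR and NRRA (adjusted p = 2.43e-08, 9.15e-09 and 1.67e-11). The desaturase gene *Scd2* fell by 0.19, 0.46 and 0.33 (adjusted p = 0.000489, 5.63e-10 and 8.37e-08). Under library totals without TMM scaling the RA call of *Scd2* was lost (-0.09, adjusted p = 0.0657). *Rnf145*, a ubiquitin ligase of the sterol response, fell by 0.13, 0.12 and 0.18 (adjusted p = 0.0344, 0.0367 and 0.00194), and the 3 calls were lost under library totals (-0.02, -0.09 and -0.07, adjusted p = 0.713, 0.114 and 0.222). For the list, library totals gave 5 higher and 2 lower genes for RA, 4 of each for NR, and 6 higher and 3 lower for NRRA.

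Of the sterol synthesis genes and their regulators, many of them known as targets of the transcription factor SREBP2, most were lower in NR. Of 21 genes, 0 were higher and 15 lower in NR, 2 higher and 10 lower in NRRA, and 3 higher and 5 lower in RA against Veh, with medians of -0.28, -0.12 and -0.06. In NR 6 of the 21 did not pass, and 22.2% of all tested genes were lower. Counted in either direction, the 12 of 21 that passed in NRRA and the 8 in RA are no more than the shares of all genes, 58.9% and 43.2%. By direction, the 2 higher and 10 lower in NRRA stood beside 30.1% and 28.7% of all genes. The 3 higher and 5 lower in RA stood beside 19.8% and 23.4%. In NRRA against NR, 11 were higher and 2 lower, beside 21.3% and 22.1% of all genes. *Srebf2*, which encodes SREBP2, stood at 336 ± 26.9 CPM in the Veh libraries, 264 ± 3.08 with RA, 303 ± 7.87 with NR and 242 ± 3.40 with NRRA (SD, n = 2). It fell by 0.35 under RA (adjusted p = 9.33e-07), 0.15 under NR (adjusted p = 0.0105) and 0.47 under NRRA (adjusted p = 2.02e-09). *Hsd17b7*, an enzyme of the later steps, fell by 0.73 under NR (adjusted p = 2.74e-11) and 0.72 under NRRA (adjusted p = 9.08e-12). *Hmgcs1*, which acts at the start of the pathway, fell by 0.19 under NR (adjusted p = 0.00125) and *Scap*, the escort of SREBP2, by 0.34 (adjusted p = 1.19e-06). *Dhcr7*, the last reductase, did not pass under NR (0.04, adjusted p = 0.674) and fell by 0.49 under NRRA (adjusted p = 2.26e-07). Under library totals without TMM scaling, 1 gene of the list was higher and 13 lower in NR (median -0.25), 6 higher and 5 lower in NRRA (median -0.01), and 4 higher and 3 lower in RA (median 0.05), so the lean toward lower levels held in NR and not in the other groups. *Hmgcs1* and *Scap* share 12.1% and 13.2% of their exon bases with a gene on the opposite strand.

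**Figure D4:**
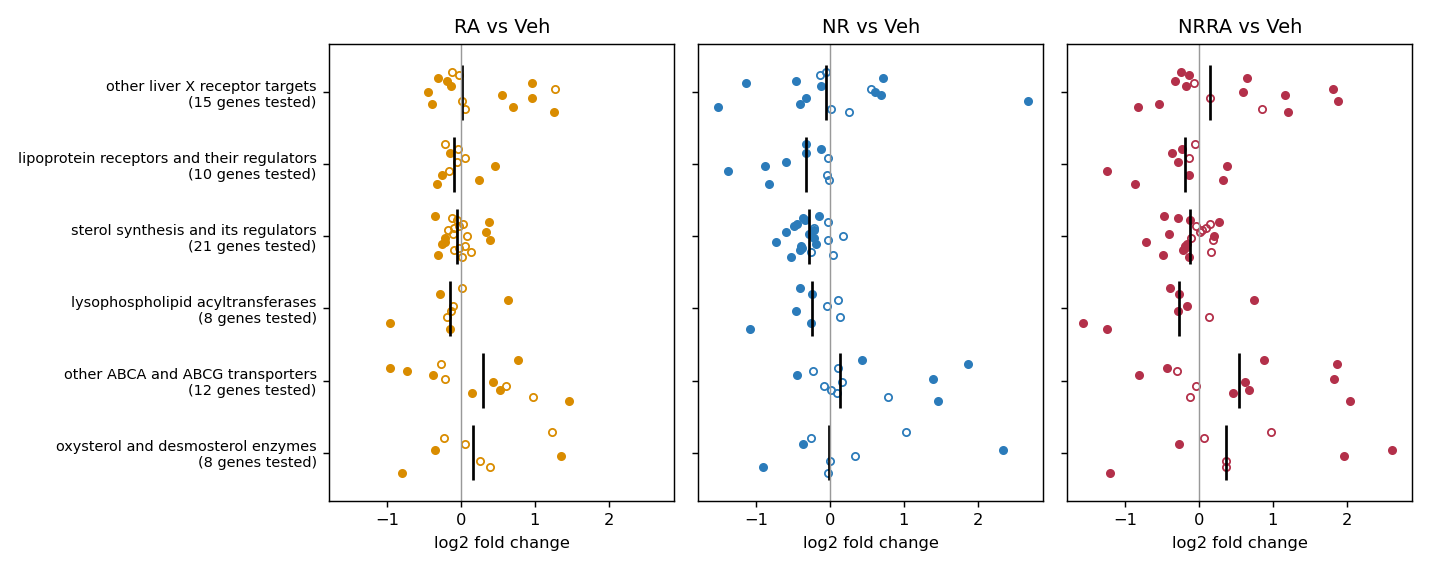
Log2 fold change against Veh for the tested genes of 6 lists in RA, NR and NRRA, with a point per gene, filled where the gene passed, and a black line at the median of the list. With TMM scaling, lipoprotein receptors have medians of -0.10, -0.33 and -0.19 and sterol synthesis genes -0.06, -0.28 and -0.12 (0.05, -0.25 and -0.01 for the latter under library totals), while the other liver X receptor targets lie on both sides of 0.

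**Figure D5:**
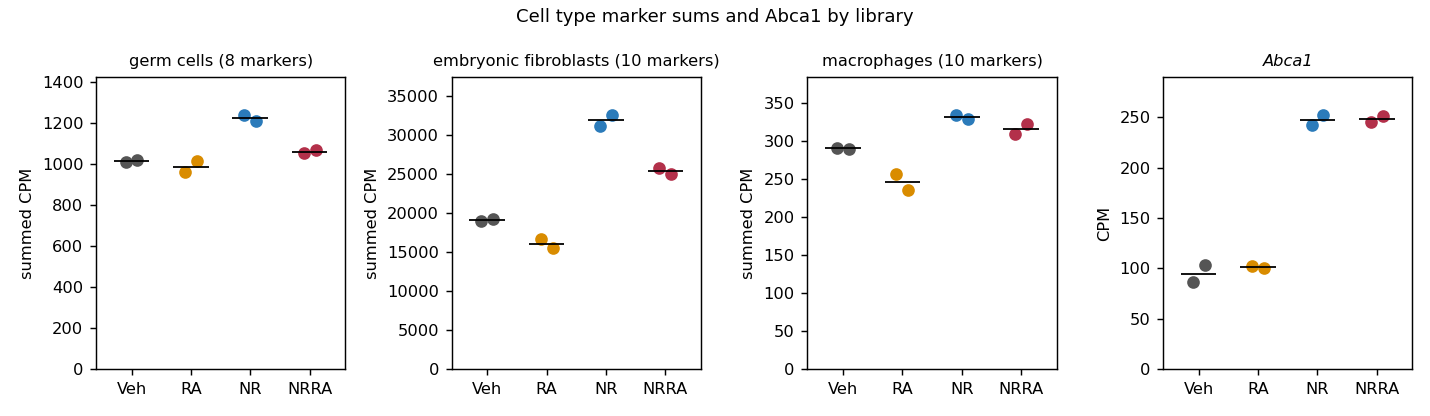
Summed CPM (linear axis from 0) of 8 germ cell, 10 fibroblast and 10 macrophage markers by group, with *Abca1* beside them, a point per library and a line at the mean of 2. The fibroblast sum is 1.67 times and *Abca1* 2.62 times its Veh mean in NR, and in NRRA the fibroblast sum is 1.33 times and *Abca1* 2.63 times.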

How the data were processed

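Per the labels and the study's methods, RNA of 8 SSC culture libraries was captured on poly(A), made into stranded libraries and sequenced on a NovaSeq. The labels name the kit TruSeq and also NuGEN. The submitters' processing notes name bcl2fastq, STAR 2.6.1c, featureCounts 1.6.4 and mm10, in no stated roles. The authors deposited counts per gene as whole numbers without normalization, and whether strand was used in counting is not given in the sources used here. Columns were matched to samples by label, and 0 columns had no sample.

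Genes were filtered with filterByExpr, scaled with TMM and fitted in R 4.3.3 with edgeR 4.0.16 (glmQLFit, glmQLFTest), with 1 coefficient per group over all 8 libraries and no block. P-values were adjusted by Benjamini-Hochberg within each of 6 comparisons over 20477 genes of 55421, and a second call also asked a fold of at least 2. The SE is the log2 fold change over the square root of F. CPM and CPM per kilobase of exon use TMM-scaled totals and GENCODE M21 exons, in which 55240 identifiers were found. Alternatives were DESeq2 1.42.0, other scalings, no filter, only the groups compared, a replicate block and leaving out each library, and, chosen after seeing the data, removal of the GC and exon length trend. Simulated data had 200 of 20477 genes changed by a fold of 2, drawn from genes that averaged 50 counts or more, as many raised as lowered. The fit recovered 199 with 8 false calls for NR against Veh and 184 with 8 false calls for the interaction. Smaller folds, such as those of most members, and changes in genes with fewer counts were not simulated. Nor was a share of changed genes as large as that called in these data.

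Replicates differed by more than sampling noise, with a chi-square per gene of 3.93, 2.12, 1.58 and 1.73 in Veh, RA, NR and NRRA, and none were merged. The members, lists and naming rule were chosen with earlier results of these data known. All 7 members are named, and of each other list up to 3 genes with the highest CPM and up to 2 with the largest change in NRRA against Veh among those that passed and averaged 50 counts or more. Genes of like pattern are the 3 with the highest Pearson r to a member among genes that averaged 50 counts or more and had a range of group means of at least 1 on the log2 scale. Single marker genes that were detected, *Mboat1* and *Lpcat2* were named after their values were seen. Some genes that these rules name are not reported here. Figures were drawn in Python 3.11.15 with matplotlib 3.10.9.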

Additional observations from a re-analysis of the deposited data

Results flagged for a closer look

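The effect of retinoic acid on *Apoe* differed between the media by a test of the difference itself, an interaction of 0.43 ± 0.113 on the log2 scale (SE, edgeR's quasi-likelihood test, adjusted p = 0.00960), with -0.15 in complete medium and 0.28 in NR medium. Of all tested genes, 13.0% passed this test, and 1 of the 7 genes is near that share. Both NRRA libraries (47.2 and 46.0 CPM) were above both NR libraries (39.9 and 36.8), while the RA libraries (30.1 and 24.1) overlapped the Veh libraries (30.8 and 28.5). The difference was 0.27 without RA replicate 2 and 0.33 without NR replicate 2, and passed in neither case (adjusted p = 0.179 and 0.122). The cause was not tested.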

How the results depend on the processing

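For the 42 log2 values of the 7 genes in 6 comparisons, 17 alternatives gave 707 values, of which 638 kept their direction and side of the threshold, 33 lost a call, 15 gained one and 21 changed sign. Of the 7 genes, 2, 5, 6, 4, 7 and 1 passed in RA, NR and NRRA against Veh, NRRA against NR, NRRA against RA and the interaction. The shares of all tested genes that passed were 43.2%, 43.9%, 58.9%, 43.4%, 40.3% and 13.0%. With a fold of at least 2 the counts of the 7 genes became 0, 1, 2, 0, 2 and 0. The shares of all genes were then 7.49%, 8.29%, 15.9%, 8.70%, 8.29% and 2.24%. Library totals without TMM scaling gave 3 of the 5 genes other than the receptors higher and 0 lower in RA against Veh, with 0 receptors passing. In NR against Veh that scaling gave 2 of the 2 receptors higher, and of the other 5 genes 3 higher and 1 lower. The count in RA against Veh was 1 under DESeq2, under upper quartile scaling and with only the 2 groups compared. Leaving out each library gave 1 to 3, 4 to 6, 5 to 7, 2 to 4, 5 to 7 and 0 to 2, in the same order. The values that changed sign all belonged to comparisons that had not passed. Leaving out each library moved *Abca1* in NRRA against NR from -0.04 to 0.03, *Abcg1* from -0.04 to 0.11 in NR and from -0.01 to 0.15 in RA against Veh, *Apoe* from -0.30 to 0.02 and *Lpcat3* from -0.01 to 0.09 in RA against Veh, *Nr1h2* from -0.06 to 0.17 in NRRA against Veh and *Nr1h3* from -0.23 to 0.06 in NRRA against NR. The interaction moved from -0.15 to 0.08 in *Mylip* and from -0.06 to 0.16 in *Nr1h2*. Other settings gave -0.01 (DESeq2 and RLE scaling) and -0.03 (GC and length trend removed, with or without the block) for *Abca1* in NRRA against NR, -0.02 (trend removed) and -0.03 (with the block as well) for the *Nr1h2* interaction, and 0.01 (library totals) for *Nr1h2* and *Nr1h3* in NRRA against NR. The cause was not tested. Over all genes, the interaction had 2652 calls with edgeR and 1715 with DESeq2.

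Libraries of the same replicate number shared no clear shift, since differences between replicates correlated at -0.09 to 0.07 between groups across 14806 genes. These values cannot show whether such libraries came from the same culture, which the labels do not state. With the replicate block the counts of the 7 genes were 2, 5, 6, 3, 7 and 1, and the call lost was that of *Lpcat3* in NRRA against NR (adjusted p = 0.0545). With 2 libraries a group and 29 to 115 reads, *Nr1h3* is the gene for which depth limits precision most.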

Other observations

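Enzymes that make or remove the sterol ligands of the receptors moved in different directions. Of 8 oxysterol and desmosterol enzymes, 1 was higher and 2 lower in RA, 1 higher and 2 lower in NR, and 2 higher and 2 lower in NRRA against Veh, with medians of 0.16, -0.02 and 0.37. Of all tested genes, 43.2%, 43.9% and 58.9% passed in either direction, and the counts of the lists here are no more than descriptions beside these shares. *Cyp7b1*, which hydroxylates oxysterols on the way to their removal, went from 6.70 ± 0.478 CPM in Veh to 34.3 ± 0.344 in NR and 41.2 ± 1.21 in NRRA (SD, n = 2), and rose by 2.35 (adjusted p = 1.91e-17) and 2.62 (adjusted p = 4.19e-19) on the log2 scale. *Ch25h*, which makes 25-hydroxycholesterol, fell by 0.80 under RA (adjusted p = 1.32e-10) and by 1.20 under NRRA (adjusted p = 1.30e-14), and 11.5% of its exon bases overlap a gene on the opposite strand. *Cyp46a1*, which makes 24-hydroxycholesterol, rose by 1.36 under RA (adjusted p = 4.87e-07) and 1.97 under NRRA (adjusted p = 4.53e-11) from 2.24 ± 0.224 CPM in Veh.

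Of 6 genes of sterol esterification and storage, 0 were higher and 1, 3 and 2 lower in RA, NR and NRRA. *Plin2*, a coat protein of lipid droplets, went from 523 ± 0.552 CPM in Veh to 212 ± 1.65 in NR and 208 ± 7.60 in NRRA, and fell by 1.30 (adjusted p = 2.03e-19) and 1.33 (adjusted p = 5.54e-20). *Soat1*, which esterifies cholesterol, fell by 0.30 under NR (adjusted p = 3.66e-05) and *Nceh1*, a cholesterol ester hydrolase, by 0.73 (adjusted p = 3.50e-09). Of 10 genes of lysosomal egress and sterol transfer, 0 were higher and 1 lower in NR, 3 higher and 2 lower in RA, and 2 higher and 3 lower in NRRA. *Npc2*, a lysosomal sterol carrier, fell by 0.41 under RA (adjusted p = 6.38e-09), and *Npc1*, its membrane partner, differed by 0.14 in RA (adjusted p = 0.0223), a call lost under DESeq2 (adjusted p = 0.0598). Under library totals without TMM scaling this list turned for NR, to 1 higher and 0 lower, and for NRRA, to 5 higher and 1 lower. For RA it kept its lean, with 4 higher and 1 lower. The storage list then gave 2 higher and 0 lower for RA, 0 higher and 3 lower for NR, and 2 higher and 1 lower for NRRA.

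Among 12 tested genes of the ABCA and ABCG families outside the members, 5 were higher and 3 lower in RA, 4 higher and 1 lower in NR, and 7 higher and 2 lower in NRRA. *Abca9* rose by 1.87 under NR (adjusted p = 4.47e-10) and 1.87 under NRRA (adjusted p = 1.20e-10), from 2.18 ± 0.353 CPM in Veh to 7.98 ± 0.166 and 8.0 ± 0.352. *Abcg2*, a drug and urate exporter, rose in RA, NR and NRRA by 0.77, 0.43 and 0.88 (adjusted p = 2.10e-10, 5.38e-06 and 2.63e-12). *Abca7*, the relative closest to *Abca1*, fell in RA, NR and NRRA by 0.38, 0.45 and 0.81 (adjusted p = 8.23e-06, 5.82e-07 and 6.91e-12). Of 10 other apolipoprotein genes, 4 were tested. *Apod* rose by 1.38 under NR (adjusted p = 9.47e-16) and fell by 0.54 under RA (adjusted p = 1.44e-06), and *Clu* rose by 3.18 under RA (adjusted p = 2.77e-20).

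The genes most like each member over the 8 libraries, by Pearson r of log2 CPM, are given as a description, since the libraries share the 4 groups and many genes follow the same groups. For *Abca1* they were *Gm4951*, *Cp* and *Etl4*, all at 0.997, and 246 of 2555 candidate genes had r above 0.95. For *Mylip* they were *Adamtsl1* (0.993), *Rtn1* (0.989) and *Arhgef10* (0.988). For *Nr1h3* they were *Lst1* (0.981), *Spi1* (0.980) and *Mmp23* (0.974). *Spi1* encodes a transcription factor of myeloid cells. Of the 10 macrophage markers, 5 were higher and 0 lower in NR, and 5 higher and 3 lower in NRRA. *Ptprc*, *Fcgr1* and *C1qb* rose by 1.36, 1.07 and 1.02 in NR, and *Cd68*, *Cd14* and *Mrc1* were lower in NRRA (-0.26, -0.25 and -0.87). The sum of the list, led by *Lyz2*, was 1.14 times the Veh sum in NR and 1.09 times in NRRA. The part of such cells in the *Nr1h3* pattern was not tested. For *Apoe* they were *Klf15* (0.981) and *Foxc1* (0.974), for *Lpcat3* *Prkar1b* (0.992), *Atg9b* (0.991) and *Arhgap6* (0.982), for *Abcg1* *Camk2b* (0.959), *Angpt4* (0.943) and *Runx3* (0.939), and for *Nr1h2* *Kcng3* (0.941), *Nfkbie* (0.921) and *Gm15821* (0.918).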
